A study of Homo sapiens with 8 samples.

Results

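The genes described here encode the repressor machinery that a KRAB domain calls to chromatin. They are TRIM28, SETDB1, ATF7IP, MORC2, SUV39H2, EHMT1, EHMT2, CBX1, CBX3 and CBX5. They were chosen by name for their place in this pathway and not by any value in the files, and they make up 10 of 19962 protein-coding genes on chromosomes 1 to 22 and X. For each gene, the share of the transcription start site (TSS) ± 1 kb covered by H3K4me3 peaks, the width of the H3K4me3 peak there and the share of the TSS ± 10 kb covered by H3K9me3 peaks were taken in each library from all deposited peaks.

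The cells were SUM159, a mesenchymal cell line established from a triple-negative breast cancer and transduced with the lentiviral vector pLV-KRAB. The vector carries dCas9-KRAB, a nuclease-dead Cas9 fused to the KRAB repressor domain, and puromycin was used to select transduced cells. The All gRNA cells held 4 guides against the promoter of ZEB1, a repressor of epithelial genes that promotes the mesenchymal state. The No gRNA cells received the vector without a targeting guide, so dCas9-KRAB was present in both groups and there is no group without it. Native ChIP-seq gave 2 libraries per group for H3K4me3 and 2 for H3K9me3, labelled as biological replicates, which makes 8 libraries.

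KRAB domains occur in a large family of zinc finger proteins and bind TRIM28 (KAP1). TRIM28 in turn brings SETDB1, which trimethylates lysine 9 of histone H3, and HP1 proteins, which bind the methylated lysine and compact chromatin. H3K9me3 therefore marks silenced chromatin, whereas H3K4me3 marks the starts of active genes, and it is usually centred on CpG-rich promoters. The comparison asks whether either mark at the genes for this machinery differed between cells with and without guides.

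The labels were checked at the target. At the start of ZEB1 the H3K9me3 share was 75.8% and 80.9% with guides, against 4.57% and 1.33% without. The H3K4me3 share at ZEB1 was mixed within each labelled group, 32.3% and 100% for All gRNA, against 0% and 100% for No gRNA. For 2 of the H3K4me3 libraries, labelled All gRNA 2 and No gRNA 1, the deposited file is named for the other condition. These 2 were the All gRNA library with 100% at ZEB1 and the No gRNA library with 0%. Grouped by file name, the H3K4me3 shares at ZEB1 would be 32.3% and 0% for All gRNA, against 100% and 100% for No gRNA. The paper reports that guides nearly erased H3K4me3 at this promoter. Whether the labels or the file names are right could not be settled here. Samples were kept in the groups that their labels give, and every H3K4me3 group value below is a value of libraries so labelled. If the file names are right, each of these H3K4me3 groups mixes the 2 conditions.

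Lists held between 321975 and 506683 peaks and cover 623 to 933 Mb for H3K4me3 and 723 to 770 Mb for H3K9me3. They kept regions with p up to about 0.1, and they hold no counts, so the sequencing depth behind a value is unknown. An H3K4me3 peak reached into the TSS ± 1 kb of 83.8% to 89.5% of all protein-coding genes, so the presence of a peak alone says little. GAPDH and ACTB, which nearly every cell uses, were covered completely by H3K4me3 in all 4 libraries. Of 8 mesenchymal markers, 7 were covered over more than 50% in every library, against 3 of 8 epithelial markers, and the leukocyte gene PTPRC had no H3K4me3 in any.

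The promoters of 9 of the 10 genes were found in RefSeq (GRCh38.p14) by symbol, all but TRIM28. Of these, 5 are shown because the results below turn on them. ATF7IP was the only one of the 10 whose H3K4me3 share did not overlap between groups, MORC2 held the most H3K9me3, EHMT1 had the highest GC content (79.3%), and CBX5 and EHMT2 had the strongest and the weakest H3K4me3 peak by rank. Each run reads 5′ to 3′ along the gene's strand and ends at or just before the start, and annotated untranslated stretches were left out. Capitals mark the motif letters searched on both strands, GGGCGG (SP/KLF), CCAAT (NFY), CCGGAAG (ETS), GCATGCGC (NRF1) and AAGATGGCG (YY1).
ATF7IP, chr12:14365432-14365681, plus strand: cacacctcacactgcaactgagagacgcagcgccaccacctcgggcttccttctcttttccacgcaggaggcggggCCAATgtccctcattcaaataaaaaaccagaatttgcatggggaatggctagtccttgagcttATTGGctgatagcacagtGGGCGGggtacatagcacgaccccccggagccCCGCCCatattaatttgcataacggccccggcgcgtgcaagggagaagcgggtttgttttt
MORC2, chr22:30968775-30969024, minus strand: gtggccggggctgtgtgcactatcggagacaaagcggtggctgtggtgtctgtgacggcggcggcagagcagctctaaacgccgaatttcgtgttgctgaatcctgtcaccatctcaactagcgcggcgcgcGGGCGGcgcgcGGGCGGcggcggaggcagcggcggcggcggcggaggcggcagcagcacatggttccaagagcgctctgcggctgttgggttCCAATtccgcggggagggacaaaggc
CBX5, chr12:54280123-54280192, minus strand: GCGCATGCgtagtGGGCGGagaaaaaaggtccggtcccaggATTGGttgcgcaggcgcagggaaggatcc
EHMT1, chr9:137618755-137618991, plus strand: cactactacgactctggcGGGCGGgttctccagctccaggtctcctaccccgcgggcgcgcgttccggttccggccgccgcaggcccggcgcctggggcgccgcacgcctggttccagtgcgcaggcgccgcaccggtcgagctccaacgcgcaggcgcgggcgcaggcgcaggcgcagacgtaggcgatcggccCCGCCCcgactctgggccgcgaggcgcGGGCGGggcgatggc
EHMT2, chr6:31897699-31897784, minus strand: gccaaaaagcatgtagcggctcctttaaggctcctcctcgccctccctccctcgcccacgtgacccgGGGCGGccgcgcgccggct

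These promoters are rich in CpG. Over the 300 bases from 250 before to 50 after the start, the median GC content of the 9 promoters was 66.7%, against 58.7% over 34961 RefSeq promoters. Their CpG content, observed over expected, had a median of 0.910. It was lowest at CBX3, at 0.708, and highest at CBX5, against a median of 0.580 over all. The RefSeq start used here was offset from the start used elsewhere by 292 bases at CBX1 and -302 bases at CBX3, negative being upstream. GGGCGG occurred in 7 of the 9, against 45.0% of all promoters of this length. CCAAT occurred in 3 of 9 (ATF7IP, CBX5 and MORC2) against 34.6%, and CCGGAAG in 2 of 9 (SETDB1 and CBX3) against 10.3%. GCATGCGC was found only at CBX5 among the 9, against 3.06% of all promoters, and AAGATGGCG only at SUV39H2, against 1.76%. The motif letters do not overlap each other in the printed runs, and a match is a description of the sequence and not a bound site.

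Many of the starts are shared with another gene. A gene on the opposite strand started within 1 kb upstream at 6 of the 10 genes (60%), against 19.7% of all protein-coding genes. CBX3 lies head to head with HNRNPA2B1 at 999 bases and CBX5 with HNRNPA1 at 604 bases, both genes for abundant RNA-binding proteins. MORC2 faces TUG1, a long RNA gene that the annotation lists as protein-coding, at 491 bases. SUV39H2 and EHMT1 face the long non-coding RNAs SUV39H2-DT and ARRDC1-AS1 at 139 and 99 bases, and TRIM28 faces the small RNA copy RN7SL525P at 486 bases. Protein-coding neighbours further off were SNX11 at 6288 bases from CBX1 and ZBTB12 at 4388 bases from EHMT2. The SNX11 start was covered completely by H3K4me3 in all 4 libraries, and that of ZBTB12 by 0% to 60.4%. At the 6 head-to-head genes an H3K4me3 or H3K9me3 value in the window belongs to both starts and cannot be told apart between them.

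H3K4me3 covered the starts of most of these genes completely. In all 4 libraries the share was 100% at SETDB1, CBX1, CBX3, CBX5, SUV39H2 and EHMT1, which is 6 of 10 genes (60%), against 34.5% of all protein-coding genes. Of the others, MORC2 and TRIM28 fell short in a single library, and ATF7IP and EHMT2 varied. With the rule that the lowest library of a group must lie at least 25 percentage points above the highest of the other, 0 of 10 genes were called higher in All gRNA and 0 of the 10 lower. Over all protein-coding genes this rule called 1.67% higher and 1.87% lower. The median difference over the 10 genes, All gRNA minus No gRNA, was 0 percentage points, as it was over all genes. The groups did not overlap at ATF7IP, which was lower in All gRNA, and at none in the other direction, against a background of 6.46% lower and 6.11% higher. With 2 libraries against 2, the smallest p that a two-sided exact permutation test can give is 0.33, so none of these differences can pass a 0.05 threshold.

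**Figure D1:**
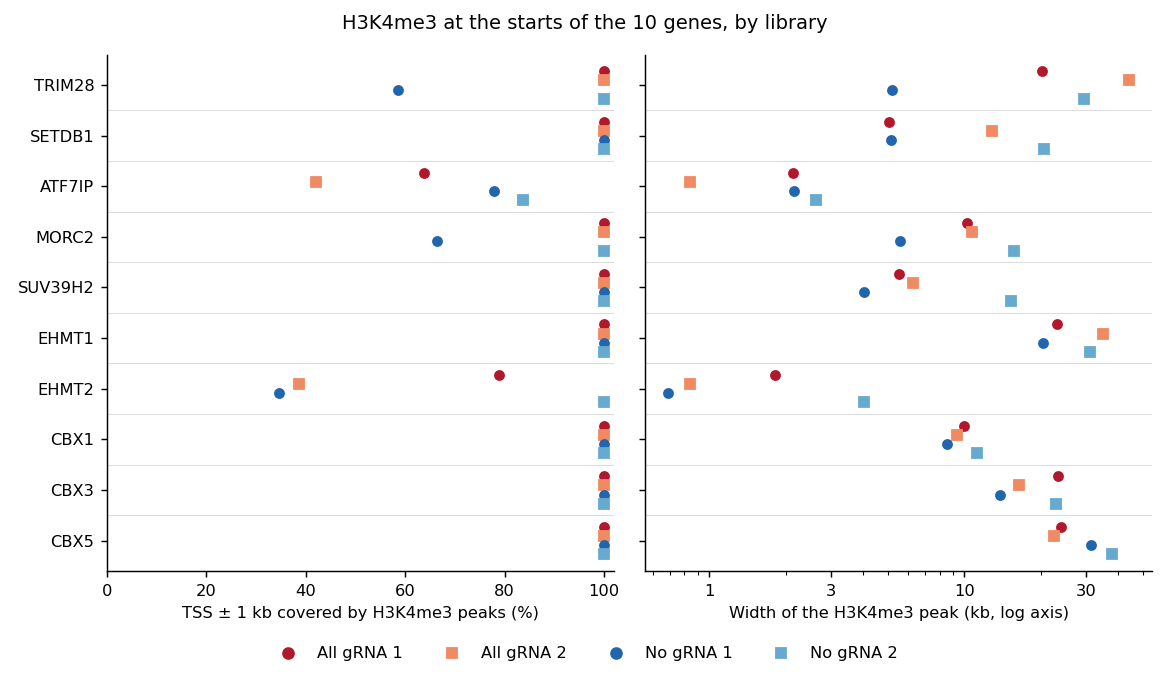
Share of the TSS ± 1 kb covered by H3K4me3 peaks (left, in %) and width of the H3K4me3 peak at the start (right, in kb on a log axis) for the 10 genes. Each point is 1 library, red shades for All gRNA and blue shades for No gRNA by label. A share of 100% in all 4 libraries was seen at 6 genes, and ATF7IP and EHMT2 had the narrowest peaks, between 692 and 4040 bases.

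TRIM28 (ENSG00000130726, chromosome 19, start at 58544064) is the corepressor that binds the KRAB domain itself. Its H3K4me3 share was 100% in All gRNA 1 and 2, 58.5% in No gRNA 1 and 100% in No gRNA 2. Only No gRNA 1 was low, and the groups overlapped. The TRIM28 peak was 20148 and 44324 bases wide in All gRNA, compared with 5213 and 29303 bases wide for No gRNA, and in No gRNA 1 it ended 170 bases past the start. The mean was 100% ± 0 (SD, n = 2) against 79.3% ± 29.3 (SD, n = 2), a difference of 20.7 percentage points within the spread of No gRNA. Without No gRNA 2 TRIM28 passed the 25-point rule as higher in All gRNA, since No gRNA 1 was then the only control.

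SETDB1 (ENSG00000143379, chromosome 1, start at 150926363) is the H3K9 methyltransferase that TRIM28 recruits. It was covered completely in every library, with peaks of 5058 and 12824 bases in All gRNA, compared with 5138 and 20583 bases for No gRNA. All gRNA 2 and No gRNA 2 held the wider peaks. The strongest SETDB1 peak had a fold enrichment over the peak caller's background of 2.28 to 2.68, and its q-value lay between 0.0563 and 0.174, so it was not found at q ≤ 0.05 in any library.

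ATF7IP (ENSG00000171681, chromosome 12, start at 14365682) is the partner that stabilises SETDB1 in the nucleus. Its H3K4me3 share was 63.8% and 42.0% in All gRNA, compared with 77.9% and 83.7% for No gRNA. Both No gRNA libraries lay above both All gRNA libraries, by 14.1 points at the nearest pair, which is under the 25-point rule. The means were 52.9% ± 15.4 and 80.8% ± 4.10 (SD, n = 2 each), with p = 0.333 by the two-sided exact permutation test, the smallest it can give. The ATF7IP peak spanned 2137 and 841 bases in All gRNA, compared with 2140 and 2620 bases for No gRNA, so the widths of All gRNA 1 and No gRNA 1 differed by 3 bases. All 4 peaks covered the start itself, and in the narrower TSS ± 500 bases the share was 77.6% and 84.0% against 100% and 100%. RefSeq lists further ATF7IP starts. One at 19599 bases downstream was covered by 56.1% and 100% in All gRNA, compared with 86.6% and 56.5% for No gRNA, and one at 29181 bases by 64.3% to 71.9%, with overlapping groups at both. A start at 42808 bases had no cover in any library. At the starts at 51165 and 52286 bases, which share their peaks, both All gRNA libraries were at 0%, while No gRNA 1 and 2 held 62.0% and 2.85% at the first and 89.2% and 12.7% at the second. The groups did not overlap at these last starts, where No gRNA 2 held a peak of 254 bases, and the share of such starts over all genes was not computed.

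MORC2 (ENSG00000133422, chromosome 22, start at 30968774) is an ATPase that works with the HUSH complex in H3K9me3 silencing. Its H3K4me3 share was 100% in both All gRNA libraries, against 66.4% and 100% in No gRNA. As at TRIM28, only No gRNA 1 was low. There the MORC2 peak was 5606 bases wide and ended 328 bases past the start, against 10275 and 10687 bases in the All gRNA libraries and 15607 bases in No gRNA 2. The start of TUG1 on the other side of the shared promoter was covered by 100% in 3 libraries and by 91.0% in No gRNA 1. Without No gRNA 2 MORC2 too passed the 25-point rule as higher in All gRNA.

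The other methyltransferases were SUV39H2, which trimethylates H3K9 in constitutive heterochromatin, and EHMT1 (GLP) and EHMT2 (G9a), which act as a pair and place mono- and dimethylation. SUV39H2 (ENSG00000152455, chromosome 10, start at 14878866) was covered completely, with peaks of 5525 and 6278 bases in All gRNA, compared with 4060 and 15262 bases for No gRNA. Its peak extended 3012 to 4326 bases upstream over SUV39H2-DT, and the extra width in No gRNA 2 lay downstream, reaching 10937 bases into the gene. EHMT1 (ENSG00000181090, chromosome 9, start at 137619005) was also covered completely and lay in a broad peak of 22985 and 35080 bases in All gRNA, compared with 20265 and 31140 bases for No gRNA. That peak reached 13258 to 21487 bases upstream and 5621 to 16752 bases downstream, and the upstream side was the longer in 3 of 4 libraries, all but No gRNA 2. At q ≤ 0.05 EHMT1 was covered in both No gRNA libraries and in neither All gRNA library, with q-values of 0.0614 and 0.166 in All gRNA, compared with 0.0427 and 0.00639 for No gRNA, so its call there rests on q-values on either side of the threshold.

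EHMT2 (ENSG00000204371, chromosome 6, start at 31897698) differed from its partner. Its H3K4me3 share was 78.9% and 38.7% in All gRNA, compared with 34.6% and 100% for No gRNA. High and low libraries occurred in both groups. In All gRNA 2 there were 2 peaks near the start of EHMT2, and the wider, of 844 bases, ended 466 bases upstream of it. The other widths were 1818 bases in All gRNA 1 and 692 and 4040 bases in No gRNA, and the q-value of the strongest peak lay between 0.367 and 0.998.

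EHMT2 lies in the major histocompatibility region, which hg38 also carries as alternate contigs, and the 101 bases centred on its start recur exactly on 5 of them. None of the other 9 genes has such a copy. H3K4me3 peaks were listed at these copies too. Copy 2 was covered by 42.2% and 90.0% in All gRNA, compared with 0% and 87.0% for No gRNA, and copy 5 by 100% and 93.5% against 22.3% and 84.7%. At copy 1 only No gRNA 2 held any cover, 34.7%, while at copy 4 the 4 libraries gave 40.9%, 46.2%, 33.7% and 100%. Over the 161 protein-coding genes whose start has 5 or more such copies, the median H3K4me3 share on the main chromosome was 0% in every library and 0 genes were covered completely in all 4, against 35.6% of 19208 genes without a copy. EHMT2 was therefore above the median of that set in every library, and the part of the copies in its low and uneven values was not tested.

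**Figure D2:**
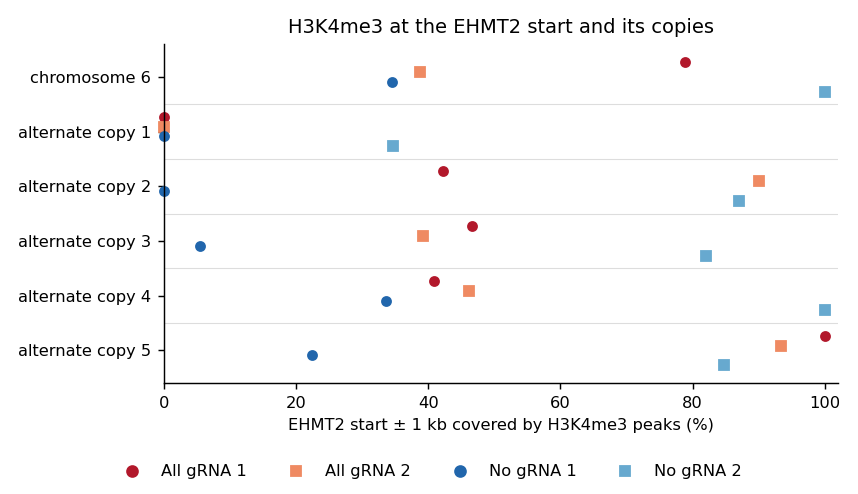
Share of the EHMT2 start ± 1 kb covered by H3K4me3 peaks (in %) on chromosome 6 and at the 5 exact copies on alternate contigs. Each point is 1 library, red shades for All gRNA and blue shades for No gRNA by label. No gRNA 2 had cover at every copy, from 34.7% to 100%, and No gRNA 1 had none at copies 1 and 2.

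CBX1, CBX3 and CBX5 encode HP1β, HP1γ and HP1α, the readers that bind H3K9me3. All were covered completely in every library. CBX1 (ENSG00000108468, chromosome 17, start at 48101478) had the most even width, 10001 and 9381 bases in All gRNA, compared with 8539 and 11205 bases for No gRNA. CBX3 (ENSG00000122565, chromosome 7, start at 26201745) had peaks of 23293 and 16379 bases against 13832 and 22846 bases, with overlapping groups, and they reached 7613 to 14020 bases upstream across HNRNPA2B1. The start of HNRNPA2B1 was itself covered by 100% in every library.

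CBX5 (ENSG00000094916, chromosome 12, start at 54280122) had the widest peak by the median over libraries, shared with HNRNPA1. It measured 23892 and 22489 bases in All gRNA, compared with 31347 and 37766 bases for No gRNA. Both No gRNA libraries were wider than both All gRNA libraries. The ratio of the group means was 0.671, and the nearest pair of libraries differed by less than the 1.5-fold asked for a call. The difference lay upstream of CBX5, on the HNRNPA1 side, where the peak extended 10736 and 11762 bases in All gRNA, compared with 17094 and 24657 bases for No gRNA. Downstream the extent was 13155 and 10726 bases against 14252 and 13108 bases. RefSeq lists a second CBX5 start 20536 bases downstream, which lay in a separate peak of 11388 to 13270 bases and was covered completely in every library.

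By the width rule, in which every library of a group is at least 1.5 times as wide as every library of the other, 0 of 10 genes were wider in All gRNA and 0 of the 10 narrower, against 1.58% and 4.71% of all protein-coding genes. The groups did not overlap at ATF7IP and CBX5, both narrower in All gRNA, and at no gene in the other direction. The background for these is 16.4% narrower and 7.25% wider, so 2 of 10 is near the background. At 5 of the 10 genes, TRIM28, SETDB1, MORC2, SUV39H2 and EHMT1, the 2 widest peaks were in All gRNA 2 and No gRNA 2. The same 2 libraries had the largest median width over all protein-coding genes, 5007.5 and 5706.5 bases, against 4350 in All gRNA 1 and 4354.5 in No gRNA 1. The files of All gRNA 2 and No gRNA 2 are both named for the No gRNA condition, and both libraries are labelled replicate 2. The condition in the file name and the replicate number therefore cannot be told apart in these widths. Given these file names, the separations at ATF7IP and CBX5 rest on the labels of All gRNA 2 and No gRNA 1 being right. So does the count of 0 narrower genes. Grouped by file name, SETDB1 would have 5058 and 5138 bases for All gRNA, against 12824 and 20583 bases for No gRNA, and pass the rule as narrower. TRIM28, MORC2, SUV39H2 and EHMT1 would be narrower without overlap but short of the rule. The share of all genes under that grouping was not computed. When the 2 libraries whose file names give the other condition were left out, No gRNA 2 stood alone against All gRNA 1. In that comparison, which has no replicate, SETDB1, CBX5, SUV39H2, EHMT2 and MORC2 were at least 1.5 times narrower in All gRNA 1. The median width over all genes was also smaller in All gRNA 1, 4350 bases against 5706.5 in No gRNA 2. The share of all genes narrower by this rule was not computed, so whether this is particular to these genes is not known.

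The 10 genes also differed in how their peak ranked among all promoters of the same library. The rank given here is the percentage of all protein-coding genes with a narrower peak, or with a weaker one by the peak caller's −log10 p, so it does not compare values between libraries. CBX5 was wider than 94.9% to 97.2% of genes and stronger than 85.3% to 96.8%, the highest of the 10 on both by the median over libraries. EHMT1 was wider than 92.7% to 98.4% of genes, and its strength rank ranged from 60.2% to 91.4%, which overlaps that of CBX5. SUV39H2 had an intermediate width rank, 48.0% to 83.2%, with a strength rank of 69.6% to 89.1%. At the other end EHMT2 was wider than 16.8% to 39.5% and stronger than 18.1% to 43.5% of genes, and ATF7IP was wider than 16.7% to 34.3%. SETDB1 was the least even of the fully covered genes, with a strength rank from 36.2% in No gRNA 2 to 88.5% in No gRNA 1. The ranks of CBX5 and EHMT2 did not overlap, while those of CBX5 and EHMT1 overlapped on both measures. Between groups, the strength rank of CBX5 was 96.8% and 93.9% in All gRNA, compared with 85.3% and 85.9% for No gRNA. H3K4me3 strength ranks did not overlap between groups at CBX5 and EHMT2, higher in All gRNA, and at ATF7IP and EHMT1, lower. The share of such separations over all genes was not computed.

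**Figure D3:**
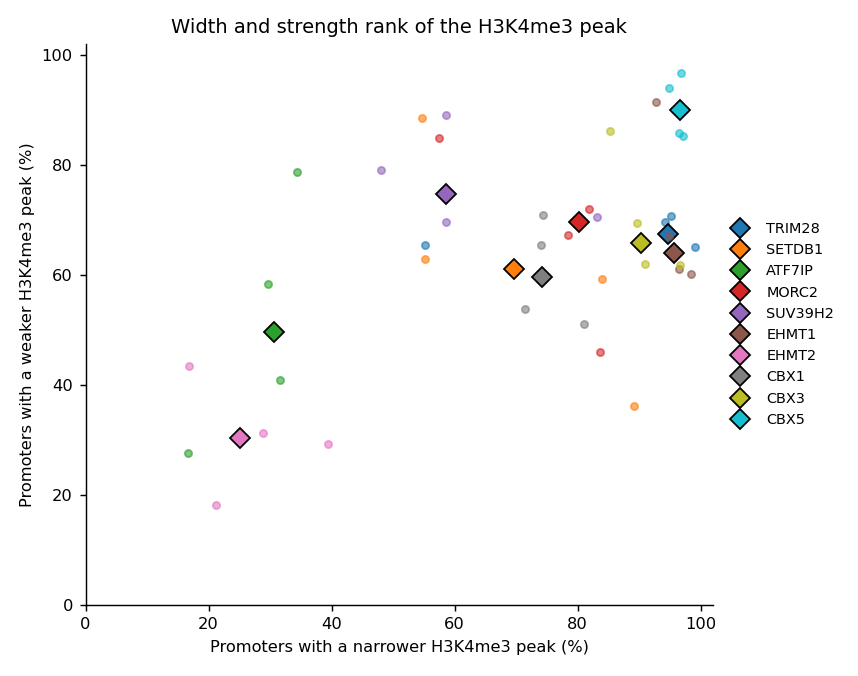
Rank of the H3K4me3 peak of each gene among all protein-coding genes of the same library, as the % of genes with a narrower peak (horizontal) and with a weaker peak by −log10 p (vertical). Small points are the 4 libraries and diamonds their median. CBX5 lies at the upper right, with width ranks of 94.9% to 97.2%, and EHMT2 and ATF7IP at the lower left, with width ranks up to 39.5%.

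Few of these peaks pass a stricter threshold. At q ≤ 0.05 the CBX5 start was covered in 3 libraries, all but No gRNA 1. TRIM28, SUV39H2 and MORC2 were covered in All gRNA 1 and No gRNA 2, and EHMT1 in the 2 No gRNA libraries. CBX1, CBX3 and ATF7IP were covered in No gRNA 2 alone, and SETDB1 and EHMT2 in no library. No gRNA 2 thus covered 8 of the 10 genes, and it also listed the most H3K4me3 peaks at q ≤ 0.05 on the main chromosomes, 13877 against 3067 to 8602 in the other libraries.

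H3K9me3 was low at 6 of these genes and of middle extent at 4. No gene was covered over more than 50% of the TSS ± 10 kb in all 4 libraries. Some H3K9me3 was present in every library at 4 of 10 genes (40%), MORC2, ATF7IP, SETDB1 and TRIM28, against 49.9% of all protein-coding genes. These 4 ranked high among all genes, whose median share was 3.41% to 7.41%. MORC2 had a larger share than 84.9% to 94.1% of genes, ATF7IP than 82.3% to 87.2%, SETDB1 than 79.9% to 82.5% and TRIM28 than 71.9% to 84.2%. At the other 6 the share was at most 7.13% in any library, and at EHMT2 it was 0% in all 4. By the 25-point rule 0 of 10 genes were higher in All gRNA and 0 of the 10 lower, against 0.185% and 0.0401% of all genes. Groups that did not overlap in share were found at 0 of 10 genes in either direction, against 10.7% higher and 24.3% lower. The median difference over the 10 genes was -0.356 percentage points, beside -0.965 over all genes. By the strength rank of the H3K9me3 peak, TRIM28 and SETDB1 were lower in All gRNA without overlap. At SETDB1 the ranks were 78.1% and 83.7% in All gRNA, compared with 87.5% and 95.2% for No gRNA. The share of such rank separations over all genes was not computed.

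**Figure D4:**
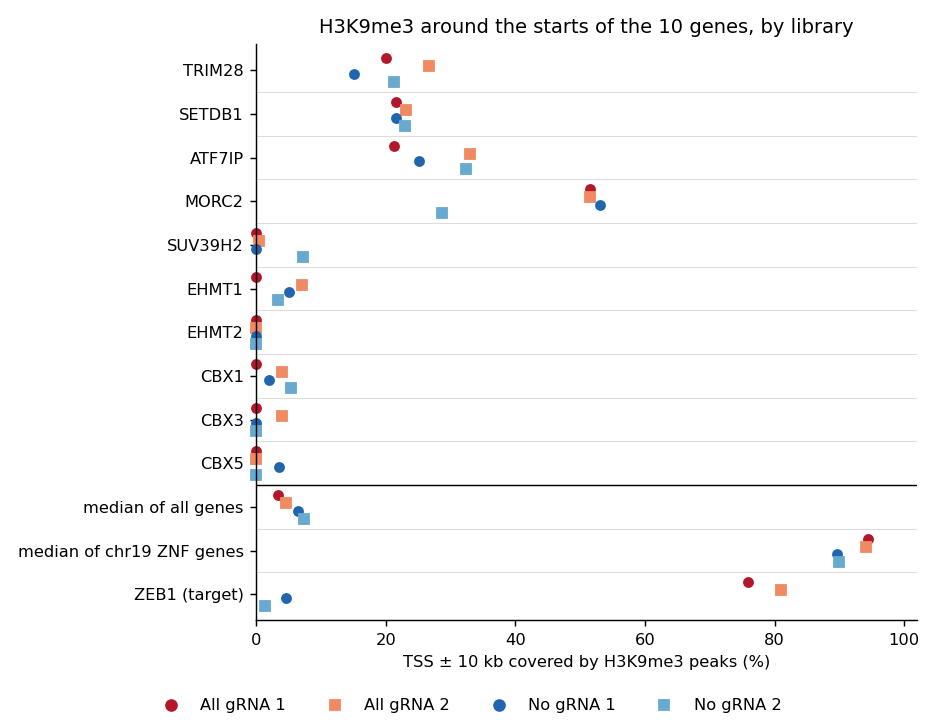
Share of the TSS ± 10 kb covered by H3K9me3 peaks (in %) at the 10 genes, with the median of all protein-coding genes, the median of the ZNF genes of chromosome 19, and the target ZEB1 below the line. Each point is 1 library, red shades for All gRNA and blue shades for No gRNA by label. The 10 genes lie between 0% and 53.1% with mixed groups, whereas ZEB1 separates the groups, 75.8% and 80.9% against 4.57% and 1.33%.

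MORC2 carried the most. Its H3K9me3 share was 51.5% and 51.4% in All gRNA, compared with 53.1% and 28.7% for No gRNA. Only No gRNA 2 was low, and it decides the difference of the means, 51.5% ± 0.0707 against 40.9% ± 17.2 (SD, n = 2 each). In total 3940 bases of the MORC2 window (19.7%) lay in peaks of all 4 libraries, more than in 92.4% of all genes. Of these, 568 bases lay inside MORC2 at 441 to 1008 bases past the start (chr22:30967766-30968333), 512 of them exonic. The other 4 stretches, of 396 to 1265 bases, lay 3267 to 9827 bases upstream over TUG1. The strongest MORC2 peak had a fold enrichment of 1.64 to 2.18 and q-values of 0.0577 to 0.184.

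ATF7IP had H3K9me3 shares of 21.3% and 32.9% in All gRNA, compared with 25.1% and 32.4% for No gRNA. The groups overlapped. A stretch of 1210 bases present in all 4 libraries lay 7038 to 8247 bases upstream (chr12:14357435-14358644), across the ribosomal protein pseudogene RPL30P11. Within the TSS ± 1 kb of ATF7IP the share was 20.2% and 0% against 0% and 58.1%. Over the TSS ± 100 kb it was 54.6% and 54.9% against 45.8% and 45.8%, the highest of the 10 genes at that scale in each library. At that scale the groups did not overlap at ATF7IP, CBX3 and EHMT2, higher in All gRNA, and at SETDB1 and CBX5, lower. The share of such separations over all genes was not computed.

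SETDB1 had the most even values of the 4 genes with H3K9me3 in every library, 21.5% and 23.1% in All gRNA, compared with 21.5% and 22.9% for No gRNA. The spread over the 4 libraries was 0.867 percentage points (SD, n = 4). A stretch of 1558 bases shared by all 4 libraries lay inside SETDB1, 3633 to 5190 bases past the start (chr1:150929996-150931553), with 123 exonic bases. The TSS ± 1 kb of SETDB1 held 0% and 0.300% in All gRNA, compared with 2.85% and 10.5% for No gRNA. These groups did not overlap, and the share of such genes over all genes was not computed for this window. The stretch shared by the libraries thus lay within the gene body, next to a start that H3K4me3 covered completely.

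TRIM28 had shares of 20.0% and 26.7% in All gRNA, compared with 15.1% and 21.2% for No gRNA, with overlapping groups. The means were 23.4% ± 4.72 and 18.2% ± 4.32 (SD, n = 2 each), a difference of 5.19 percentage points (p = 0.667, two-sided exact permutation test). Only 73 and 93 bases, both upstream of the start at 3169 to 4922 bases, were shared by all 4 libraries. TRIM28 lies on chromosome 19, which holds many of the KRAB zinc finger genes. Over the TSS ± 100 kb its H3K9me3 share was 15.9% and 20.1% against 17.5% and 23.0%.

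**Figure D5:**
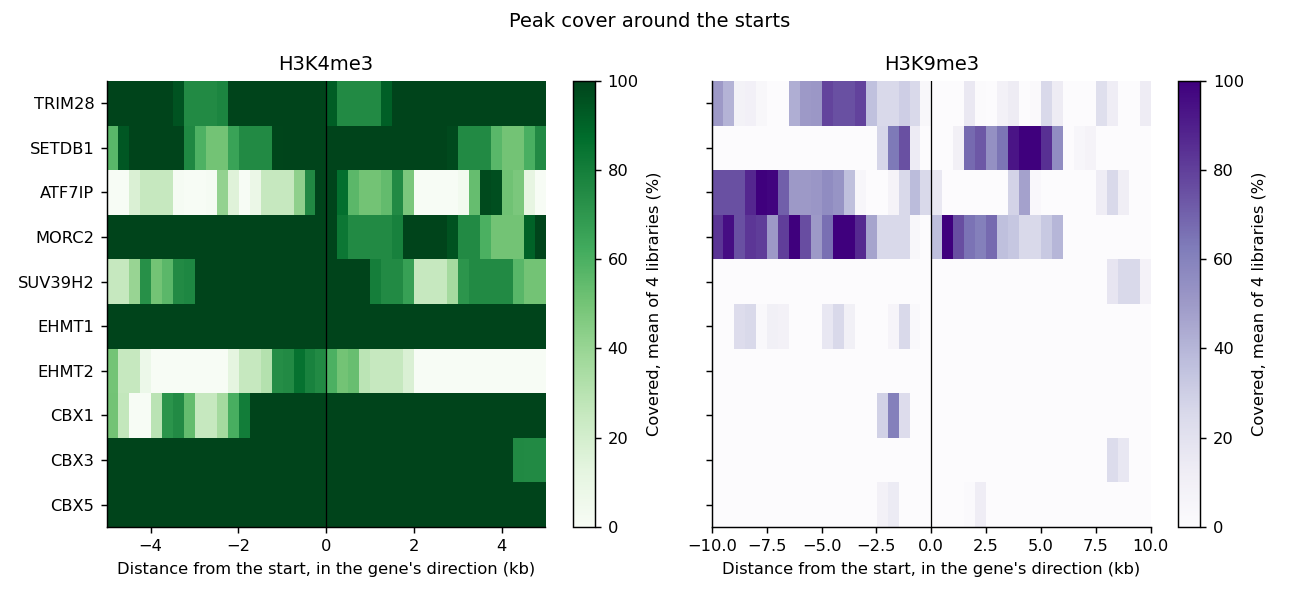
Mean cover over the 4 libraries (in %) in bins around the start of each gene, for H3K4me3 within 5 kb (left) and H3K9me3 within 10 kb (right). Negative distances are upstream in the gene's direction. H3K9me3 is deepest upstream of MORC2 and ATF7IP and inside SETDB1, where stretches of up to 1558 bases were present in all 4 libraries, and it is near 0% around the starts of the CBX genes apart from CBX1.

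The remaining genes had little H3K9me3, and the groups overlapped at each. At CBX1 the shares were 0% and 4.02% in All gRNA, compared with 1.89% and 5.35% for No gRNA. At EHMT1 they were 0% and 6.98% against 5.08% and 3.33%, and at SUV39H2 0% and 0.370% against 0% and 7.13%. CBX3 held 4.01% in All gRNA 2 alone and CBX5 3.55% in No gRNA 1 alone. Over all 10 genes, H3K9me3 peaks passed q ≤ 0.05 only in No gRNA 2, where they covered 5.35% of the window of CBX1, 17.7% of that of TRIM28 and 11.5% of that of SETDB1. EHMT2 had no H3K9me3 peak on the main chromosome or at its 5 copies. Among the 131 genes of chromosome 6 with 5 or more copies, 96.9% had none in any library, against 7.71% of genes without a copy, and the part of the copies in this 0 was not tested.

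The ZNF genes of chromosome 19, many of which encode the KRAB proteins that use TRIM28, show what high cover looks like in these lists. The median H3K9me3 share of these 249 genes was 94.4% and 94.1% in All gRNA, compared with 89.7% and 89.9% for No gRNA. The highest value among the 10 machinery genes, 53.1% at MORC2, was below these medians. For H3K4me3 the order was the other way, with 25.7% of the ZNF genes covered completely in all 4 libraries, against 6 of 10 machinery genes.

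The wider pathway was described with 56 further genes from a fixed list. Over H3K4me3, 0 of 56 were called higher and 0 of 56 lower in All gRNA, and over H3K9me3 the same counts were found. Over all protein-coding genes the rule called 1.67% higher and 1.87% lower for H3K4me3, and 0.185% and 0.0401% for H3K9me3, so counts of 0 are near the background. All 4 libraries showed complete H3K4me3 cover at 37 of 56 (66.1%), against 34.5% of all protein-coding genes. By role this was 11 of 13 NuRD genes, which remove acetyl groups and remodel nucleosomes, 9 of 11 genes of the H3K4 methyltransferase complexes, 6 of 10 H3K9 demethylases, 6 of 13 silencing partners, 3 of 5 further H3K9 methyltransferases and partners, and 2 of 4 DNA methylation genes. ATRX, a chromatin remodeller on chromosome X, was the only one of the 56 with H3K9me3 over more than 50% of its window in all 4 libraries. Its H3K9me3 shares were 67.6% and 84.1% in All gRNA, compared with 60.8% and 77.7% for No gRNA, with overlapping groups. H3K4me3 covered the ATRX start by 100% in 3 libraries and by 68.5% in No gRNA 1.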

How the data were processed

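Native ChIP-seq of H3K4me3 and H3K9me3 was analysed in SUM159 cells, 2 libraries per mark and group. According to the study's methods, reads were trimmed with fastp and aligned with bowtie2 to hg38, excluded regions and duplicates were removed, and MACS2 called broad peaks in each library. The submitters' processing notes name bcl2fastq 2.17, Trimmomatic 0.33, Bowtie 1.1.2 and MACS2 2.1.0 instead. Whether input served as control is not given in the sources used here. Each deposited peak carries a score, a fold enrichment ratio over background, and −log10 p and −log10 q values, taken as the authors deposited them. The score was not used.

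Peaks on chromosomes 1 to 22 and X were merged within a library, and shares and widths were computed around the MANE Select or Ensembl canonical start of each gene in GENCODE 44, whose build is hg38. Functions were tested on simulated data. Python 3.11.15, NumPy 2.4.6 and pandas 2.3.3 were used. Libraries were compared between labelled groups by the gap rules and by exact permutation over 6 labellings. Peak lists hold no counts, so no count model could be fitted. Named genes were the 10 genes, neighbours starting within 10 kb that code for protein or lie head to head, pathway genes that were called or had H3K9me3 over more than 50% of the window in all 4 libraries, ZEB1, GAPDH, ACTB and markers. PTPRC was named after its values were seen. The genes and lists were chosen with earlier results of these data known. Alternatives covered q thresholds, equal covered length, start sites, windows, gaps, width ratios, joined gaps, left-out libraries and the replicate block.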

Additional observations from a re-analysis of the deposited data

How the results depend on the processing

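Of 331 alternative values, 101 were counts or medians over the 10 genes and 90 of these stayed within 1.5 times the count or 1 SD of the median. Some values could not move. A stricter gap or width ratio can call no gene where the main rule called 0. The replicate block was applied to the calls only, so its medians and single-gene differences repeat the main values. Not every unchanged value is therefore a check. The count of H3K4me3 shares called lower in All gRNA rose from 0 to 1 at q ≤ 0.05 (EHMT1), where 1.69% of all genes were called lower and 0.0952% higher, and to 1 with a gap of 10 points (ATF7IP). With single libraries left out it ranged from 0 to 1 (ATF7IP, without All gRNA 1), and the count called higher from 0 to 2 (TRIM28 and MORC2, without No gRNA 2). Width calls changed more. Joining gaps up to 1 kb gave 1 narrower gene (CBX5). Leaving out single libraries gave 0 to 4 narrower genes, with SETDB1, CBX5, SUV39H2 and EHMT2 without No gRNA 1 and ATF7IP without All gRNA 1, and 0 to 2 wider genes, with TRIM28 without All gRNA 1 or No gRNA 2 and MORC2 without No gRNA 2. Without the 2 libraries whose file names give the other condition 5 genes were narrower. Leaving out libraries leaves a single library in a group, and its spread is then unknown. The share of all genes called without these libraries was not computed. For the other settings the cause was not tested. H3K9me3 shares gave 0 calls among the 10 genes under every alternative run. The q thresholds could give none. At q ≤ 0.01 the 10 genes had no H3K9me3 cover in any library, and at q ≤ 0.05 they had it only in No gRNA 2. The median difference of H3K9me3 shares ranged from -1.22 to 1.85 percentage points with single libraries left out, and that of H3K4me3 stayed at 0. Of the 230 alternative values of single genes, 24 moved by more than the spread between replicates.

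The labels give no pairing of libraries beyond the replicate number. The deviations of libraries with the same number from their group means correlated at 0.0264 for H3K4me3 and 0.0351 for H3K9me3 over promoters. Widths did follow the replicate number. The median H3K4me3 width over all genes was 5007.5 and 5706.5 bases in All gRNA 2 and No gRNA 2, against 4350 and 4354.5 bases in All gRNA 1 and No gRNA 1. With the replicate block, 1 gene (TRIM28) was called wider in All gRNA, and the block changed no share call. Unknown depth limits all of these values, since a weak peak can be missing from a list for lack of reads.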
